A study of Bos taurus with 8 samples.

Results

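Cingulin (CGN) and 7 further proteins of the epithelial tight junction and apical membrane were followed in bovine blastocysts that had been exposed to serum lipids and in blastocysts that had not. The genes were TJP1, OCLN, CLDN4, CLDN6, CLDN7, F11R and EZR besides CGN, and their members were the array probes that the platform's annotation assigns to these 8 symbols. There were 12 such probes among 43794 expression probes: 3 for CGN, 2 each for F11R and EZR, and 1 for each of the others. All 12 passed the filter on dim probes, which kept 28844 in all. The lipid group consisted of pooled Holstein blastocysts produced in vitro whose culture medium received lipids extracted from serum from day 3, at 8 to 16 cells, to day 7. The control group had the same origin and the same control culture to day 3 and received no lipids. Each pool held 10 embryos collected at 170 hours after fertilization, and 4 lipid pools and 4 control pools were compared on 8 two-colour arrays, 4 on slide 87 and 4 on slide 88. Arrays of the same number on the 2 slides carry opposite dyes and are treated as 1 pool pair, so that n = 4 pool pairs.

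Tight junctions join neighbouring epithelial cells near their apical border and close the space between them. In the mammalian blastocyst they form in the trophectoderm, the outer epithelium, and allow fluid to collect in the cavity. Claudins, occludin (OCLN) and the junctional adhesion molecule F11R (JAM-A) span the membrane. ZO-1 (TJP1) binds their cytoplasmic ends, and cingulin joins ZO-1 to actin and myosin. Ezrin (EZR) links the apical membrane and its microvilli to actin, and marks the outer pole of cells in the mouse embryo.

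CGN had a lower mean level in lipid than in control blastocysts through each of its 3 probes, but the size differed between probes and none passed the test over all probes. Values are intensities after background correction and normalization of each array, averaged over the 2 arrays of a pool on the log2 scale. Log2 ratios, lipid over control, are means ± SE of the 4 pool pairs. Arrays were not scaled to each other, so levels in pools of different numbers also carry differences between arrays. Through probe EMBV3_41713, CGN had intensities of 185, 263, 188 and 211 in lipid pools 1 to 4 and 319, 487, 312 and 309 in control pools 1 to 4. Every lipid pool was below every control pool, an arrangement that 0.586% of the kept probes showed in this direction. No probe of the 8 genes had every lipid pool above every control pool, which 0.218% of the kept probes did. Pool pairs 1 to 4 gave this CGN probe log2 ratios of -0.79, -0.89, -0.73 and -0.55, with a mean of -0.74 ± 0.07, or 0.599 times the control level. It was the only one of the 12 probes with a mean at or below -0.5, as 0.576% of the kept probes had.

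All 8 arrays had a negative ratio for this CGN probe, as had 1.15% of the kept probes. On slide 87 the ratios were -0.81, -0.91, -0.44 and -0.43 on arrays 1 to 4, and on slide 88 they were -0.77, -0.87, -1.03 and -0.67. Arrays 1 and 2 were alike on both slides, and arrays 3 and 4 were lower on slide 88. On arrays 3 and 4 of slide 87 the raw foreground was 341 and 300.2 for lipid and 318 and 299 for control, so the negative ratios there appeared only after the correction and normalization of the dyes. The limma 95% confidence interval of the mean was -0.94 to -0.54. Its unadjusted p of 0.000189 was the second smallest of all kept probes (rank 2), and its adjusted p was 0.996, the lowest value that any probe reached. At that threshold 0.00% of the kept probes passed, and at an unadjusted p under 0.05 4.46% did, 2.39% lower and 2.07% higher with lipid.

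The call for this CGN probe depends on whether the 2 arrays of a pool pair are counted as separate samples. With the 8 arrays taken as independent its limma adjusted p was 0.0329, and 0.0147 once each slide had its own dye term. Taking pool pairs as a random block, with those dye terms kept, gave 0.0884. An exact permutation test over the 4 pool pairs cannot go below p = 0.125, which is what it gave here. The probe was also dim: the raw foreground intensity was 193 to 375 in the lipid channel and 299 to 659 in the control channel, and it exceeded the limit set from negative control spots on 5 of 8 arrays for lipid and on 7 of 8 for control.

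The other CGN probes showed smaller differences. Probe EMBV3_29056 had intensities of 184, 155, 162 and 133 in lipid pools and 197, 201, 207 and 158 in control pools, so that the groups overlapped while each lipid pool was below its own control. Its pool pair ratios were -0.10, -0.38, -0.35 and -0.25, with a mean of -0.27 ± 0.06 (limma unadjusted p = 0.0152, adjusted p = 0.996). It passed the limit on 4 of 8 arrays in the lipid channel and on 5 in the control channel. Its mean ratio was -0.49 on the 4 arrays with lipid in Cy5 and -0.05 on the 4 with lipid in Cy3. Of the kept probes, 26.9% had a larger difference between orientations.

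Probe EMBV3_41371, the CGN probe of highest mean intensity, had 282, 694, 476 and 564 in lipid pools and 481, 708, 564 and 541 in control pools. Only pool pair 1 stood clearly below 0, at -0.77, with -0.03, -0.24 and 0.06 in pool pairs 2 to 4. The mean was -0.24 ± 0.19 (limma 95% interval -0.63 to 0.14, unadjusted p = 0.165), and without pool pair 1 it was -0.07. Among 830 genes with 3 kept probes, 19.0% had all 3 means below 0, as CGN had.

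The 3 CGN probes were compared with each other over the pool pairs. EMBV3_41713 was lower than EMBV3_29056 by a log2 difference of -0.47 ± 0.09, with the same sign in 4 of 4 pool pairs (95% interval -0.74 to -0.20). EMBV3_41371 minus EMBV3_41713 gave 0.49 ± 0.18, also of 1 sign in all 4 (95% interval -0.06 to 1.05). EMBV3_41371 and EMBV3_29056 differed by 0.03 ± 0.24 (95% interval -0.73 to 0.78). The exact permutation p-values, two-sided, were 0.125, 0.125 and 1.00, or 0.312, 0.312 and 1.00 after Benjamini-Hochberg adjustment over the 5 pairs of probes of CGN, F11R and EZR. The platform annotation used here gives no transcript or exon for these probes.

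**Figure D1:**
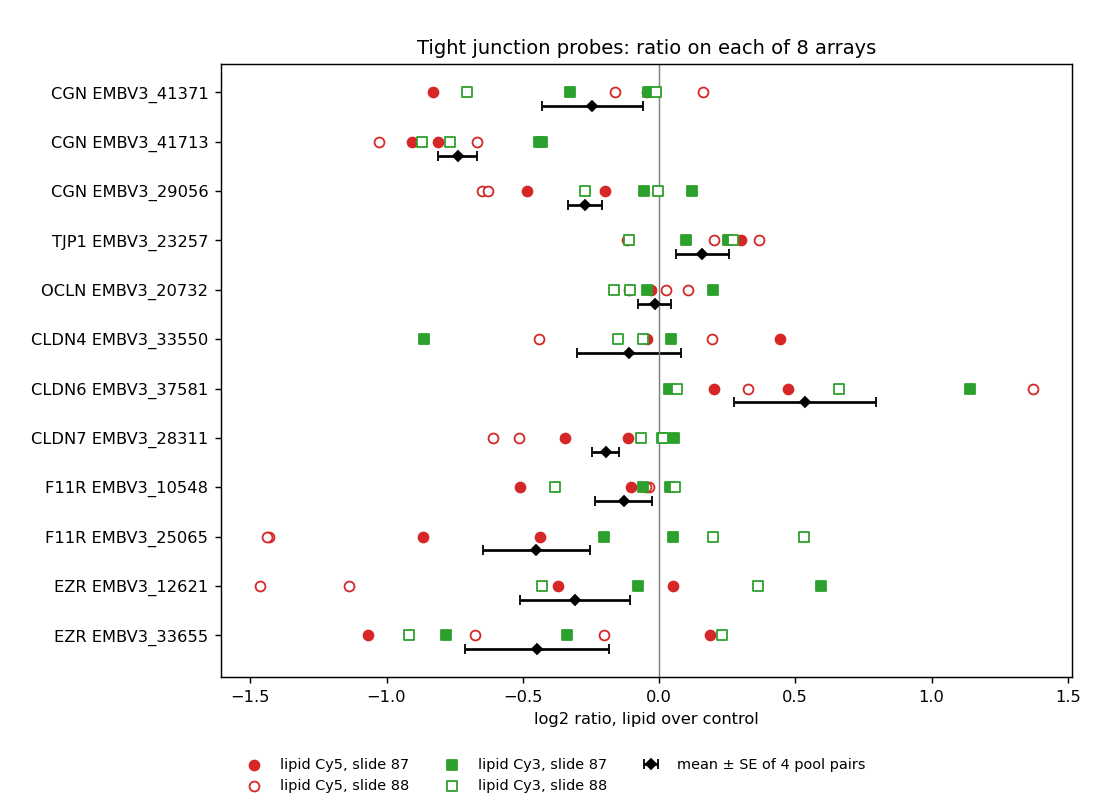
Log2 ratio of lipid over control for each of the 12 probes on each of 8 arrays (red circles, lipid in Cy5; green squares, lipid in Cy3; filled, slide 87; open, slide 88), with the mean ± SE of 4 pool pairs as a black diamond below. CGN EMBV3_41713 is below 0 and CLDN6 above 0 on all 8 arrays, while F11R EMBV3_25065 and, by less, CLDN7 separate by dye.

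TJP1 (ZO-1), the scaffold that cingulin binds, had a mean above 0, unlike CGN, and did not pass the test. Its probe had intensities of 13800.5, 13484, 17726 and 27240.3 in lipid pools and 14916, 11058, 15966 and 21968 in control pools, so the groups overlapped widely. Pool pair 1 had a ratio of -0.11, and pool pairs 2 to 4 had 0.29, 0.15 and 0.31. The mean of 0.16 ± 0.10 had a limma 95% interval of -0.08 to 0.40 (unadjusted p = 0.151), and without pool pair 1 it was 0.25. The slides gave nearly the same mean, 0.18 on slide 88 and 0.14 on slide 87.

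Of the 3 claudins none passed the test over all probes. CLDN6, a claudin of embryonic epithelia, had higher means in lipid blastocysts: 8287, 11226, 5060.2 and 8635 in lipid pools against 5590.2, 10224, 4459.9 and 3612 in control pools. The groups overlapped, but each lipid pool was above its own control, by log2 ratios of 0.57, 0.13, 0.18 and 1.26, and 8 of 8 arrays had a positive ratio, as had 0.849% of the kept probes. The mean was 0.54 ± 0.26, or 1.45 times the control level (limma unadjusted p = 0.0444, adjusted p = 0.996, 95% interval 0.02 to 1.05). Pool pair 4 carried the largest share, with array ratios of 1.14 and 1.37, and without it the mean was 0.295. The SD of CLDN6 over pool pairs, 0.52, was larger than that of 91.5% of the kept probes.

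CLDN4, a claudin of many simple epithelia, had 30588, 25044, 20280.2 and 17444 in lipid pools and 26759, 26770.0, 18665 and 27397 in control pools. Its ratios of 0.19, -0.10, 0.12 and -0.65 had a mean of -0.11 ± 0.19 (limma 95% interval -0.50 to 0.29). Only pool pair 4, the pair with the largest CLDN6 ratio, stood well below 0, and without it the CLDN4 mean was 0.07, against -0.21 without pool pair 1 and -0.18 without pool pair 3. The level of CLDN4 in the lipid pool of pair 4 was the lowest of all 8 pools, as was that of CLDN6 in the control pool of the same pair.

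CLDN7, another epithelial claudin, had 284, 202, 181 and 197 in lipid pools against 294, 233, 215 and 238 in control pools, each lipid pool below its control by a small step. The pool pair ratios were -0.05, -0.21, -0.25 and -0.28, with a mean of -0.20 ± 0.05 (limma unadjusted p = 0.0379, adjusted p = 0.996). The signal was near the limit: raw foreground intensities were 210 to 404 for lipid and 212 to 424 for control, and the lipid channel passed on 5 of 8 arrays. The mean ratio was -0.40 where lipid was in Cy5 and 0.00 where it was in Cy3. A larger difference between orientations was seen in 30.4% of the kept probes.

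OCLN (occludin), a membrane protein that regulates the junction, was at nearly the same level in both groups. It had 528, 549.8, 793 and 758 in lipid pools and 565, 593, 714 and 764 in control pools. Pools 3 and 4 were higher than pools 1 and 2 in lipid and control alike, on arrays that were not scaled to each other. The mean ratio was -0.02 ± 0.06, with -0.10, -0.11, 0.15 and -0.01 in the pool pairs, and the limma 95% interval of -0.21 to 0.17 covers changes of either direction up to that size (unadjusted p = 0.841).

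F11R (JAM-A), an adhesion molecule of the immunoglobulin family, was measured by a bright and a dim probe that differed in their dependence on the dye. The bright probe, EMBV3_10548, had 10420.3, 12683, 10786 and 11835 in lipid pools and 14199.7, 12881, 10772 and 12283 in control pools. Pool pair 1 stood apart, with a ratio of -0.45 against -0.02, 0.00 and -0.05 in the others. The mean was -0.13 ± 0.11 (limma unadjusted p = 0.247), and without pool pair 1 it was -0.02. In the same pool pair CGN had -0.77 through EMBV3_41371, -0.79 through EMBV3_41713 and -0.10 through EMBV3_29056. The dim F11R probe, EMBV3_25065, had 0.05 there.

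The dim probe of F11R, EMBV3_25065, had 592, 713, 437 and 323 in lipid pools and 573, 899, 706 and 569.9 in control pools, with ratios of 0.05, -0.34, -0.69 and -0.82 and a mean of -0.45 ± 0.19 (limma unadjusted p = 0.0341, adjusted p = 0.996). Its 4 arrays with lipid in Cy5 had ratios of -0.44, -0.87, -1.43 and -1.44, and its 4 with lipid in Cy3 had 0.53, 0.20, 0.05 and -0.20. The orientations did not overlap, and only 2.57% of the kept probes had as large a difference between them. Averaging a pool pair removes a dye effect only where both slides have the same one. A dye effect that differs between slides therefore adds to the spread of the pool pairs. It cancels in the mean of all 4, because each slide held both orientations equally often. For the same reason a dye term for each slide cannot change the mean, which stayed at -0.45, so that fit is no check of it. The 2 probes of F11R differed by 0.32 ± 0.29 (95% interval -0.60 to 1.24, exact permutation p = 0.375).

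EZR (ezrin) had lower mean levels with lipid through both probes, neither of which passed the test. Probe EMBV3_12621 had 3116, 3663, 2683 and 2570.3 in lipid pools and 2697, 4836, 4582 and 3105 in control pools. Its pool pair ratios were 0.21, -0.40, -0.77 and -0.27, with a mean of -0.31 ± 0.20 (limma unadjusted p = 0.114). Without pool pair 1 it was -0.48, and without pool pair 3 it was -0.15. The slide means were -0.67 on slide 88 and 0.05 on slide 87. They differed by -0.72 ± 0.50 (exact permutation p = 0.375 over 4 array numbers). Arrays 1 to 4 had 0.05, -0.37, -0.08 and 0.59 on slide 87 and 0.37, -0.43, -1.47 and -1.14 on slide 88. The slides thus disagreed mainly on arrays 3 and 4, which had lipid in Cy5 on slide 88. The mean was -0.73 with lipid in Cy5 and 0.11 with lipid in Cy3, a difference that 7.29% of the kept probes reached.

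Probe EMBV3_33655 of EZR gave nearly the same ratio in both orientations, -0.44 with lipid in Cy5 and -0.45 with lipid in Cy3, but spread widely between pool pairs. It had 561, 349.9, 807 and 295 in lipid pools and 486, 696, 973 and 489.6 in control pools, with ratios of 0.21, -0.99, -0.27 and -0.73. The mean was -0.45 ± 0.26 (limma 95% interval -0.97 to 0.08, unadjusted p = 0.0814), and without pool pair 2 it was -0.26. Both EZR probes had a ratio of 0.21 in pool pair 1 and were below 0 in pool pairs 2 to 4, and they differed from each other by 0.14 ± 0.25 (exact permutation p = 0.625).

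**Figure D2:**
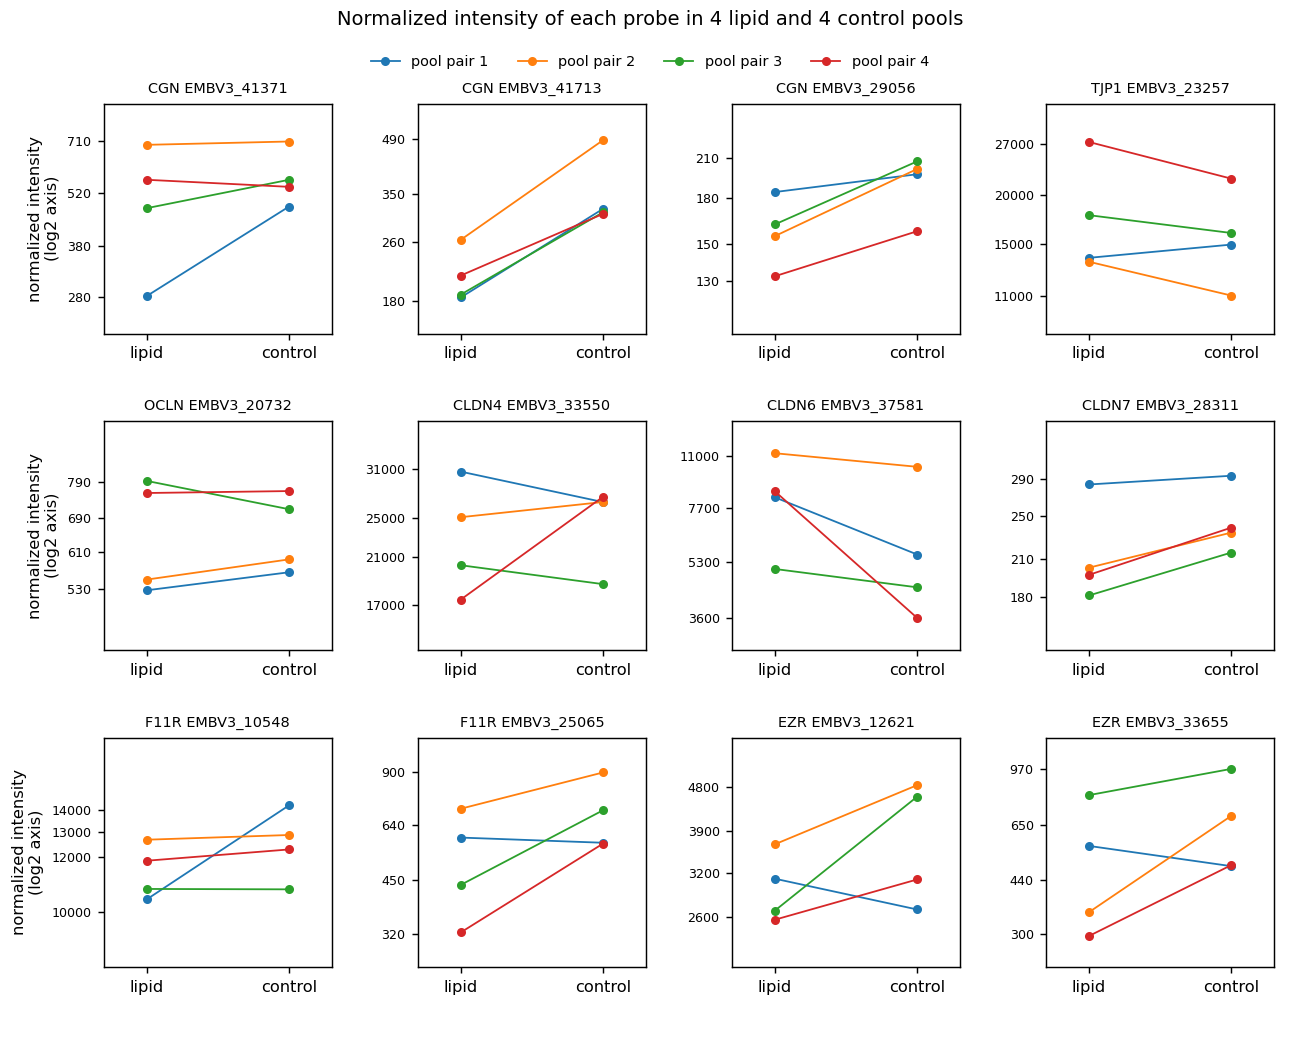
Normalized intensity on a log2 axis of each probe in the 4 lipid pools (left) and the 4 control pools (right), lines joining the pools of a pair. In CGN EMBV3_41713 all 4 lines rise towards control without overlap of the groups, and in CLDN6 all 4 fall towards control.

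Seen as a group, 10 of the 12 probes had a mean ratio below 0 and 2 above it, with a median of -0.22, where 53.7% of all kept probes were below 0 and their median was -0.01. At an unadjusted p under 0.05 in limma stood 4 lower probes (2 of CGN, 1 each of CLDN7 and F11R) and 1 higher one (CLDN6). The shares over all kept probes were 2.39% and 2.07%, and 0 of 12 passed after adjustment. Over the alternative settings the lower probes numbered from 1, as with a trend and robust prior, to 6, without pool pair 1. The higher ones numbered 0 to 2. All 4 pool pairs were below 0 for 3 probes (2 of CGN and that of CLDN7) and above 0 for 1 (CLDN6), and over all kept probes the shares were 6.65% and 4.75%. Through the brightest probe of each gene, 6 of 8 genes were below 0 with a median of -0.12, where 50.1% of all genes were below 0. By that probe 1 gene was lower (CLDN7) and 1 higher (CLDN6) at an unadjusted limma p under 0.05, where 5.37% of all genes were either. The lower probes of CGN and F11R were not the brightest of their genes. The 8 genes were chosen with earlier results of these data known, so these counts describe the list and are no independent evidence of a direction.

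The pool pairs did not weigh equally on the group. The median over the 12 probes was -0.07, -0.16, -0.25 and -0.26 in pool pairs 1 to 4, with 7, 10, 7 and 9 probes below 0. On slide 88 the medians of arrays 1 to 4 were -0.03, -0.09, -0.18 and -0.53, and on slide 87 they were -0.12, -0.23, 0.02 and -0.04. Lipid was in Cy5 on arrays 1 and 2 of slide 87 and on arrays 3 and 4 of slide 88. With lipid in Cy5 the medians of arrays 1 to 4 were thus -0.12, -0.23, -0.18 and -0.53. With lipid in Cy3 they were nearer 0, at -0.03, -0.09, 0.02 and -0.04. The negative median of the group therefore came mostly from the Cy5 orientation, and the cause was not tested.

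**Figure D3:**
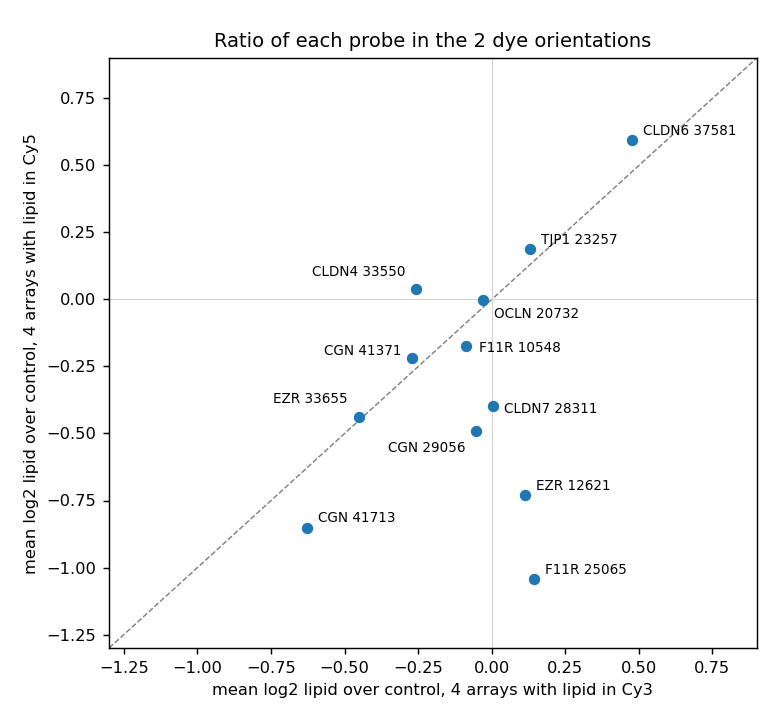
Mean log2 ratio of lipid over control on the 4 arrays with lipid in Cy5 (vertical axis) against that on the 4 arrays with lipid in Cy3 (horizontal axis), 1 point per probe (the digits of its EMBV3 name beside the gene), with a dashed line of equality. CGN EMBV3_41713, CLDN6, TJP1 and EZR EMBV3_33655 are among the probes with the same sign in both orientations. F11R EMBV3_25065, EZR EMBV3_12621 and CLDN7 are negative only where lipid is in Cy5, with CLDN7 at 0.00 in Cy3. CLDN4 is negative only where lipid is in Cy3, and CGN EMBV3_29056 is near 0 there.

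Further genes of the junction were read through their brightest kept probes in 4 lists: other claudins, other membrane proteins, plaque and polarity proteins, and ezrin's relatives and partners. Of 42 measured genes 23 were below 0 and 19 above, with a median of -0.02, against 5857 below and 5828 above of 11685 genes. At an unadjusted limma p under 0.05 stood 1 of the 42, or 2.38%, where 5.37% of all genes did, and 0 passed after adjustment. The medians of the lists lay between -0.03 for plaque and polarity and 0.03 for ezrin's partners.

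CLDN14, a further claudin, had the smallest p of the 42, with a mean of -0.28 ± 0.09 and 4 of 4 pool pairs negative (limma unadjusted p = 0.0284, adjusted p = 0.996). PRKCI, an atypical kinase of the apical polarity complex, had -0.20 ± 0.08 and was also negative in 4 of 4. Its partner PARD6B had -0.17 ± 0.10, in a probe that passed the limit on 2 of 8 arrays for lipid and 4 for control. NF2 (merlin), a relative of ezrin, had -0.12 ± 0.08, and CLDN23 had 0.21 ± 0.18. All 4 pool pairs were negative for 3 of the 42 genes and positive for 0 of them. Of all 11685 genes, 664 were negative and 626 positive in all 4, so such a pattern was not rare.

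Close relatives of the 8 genes did not pass the test. JAM3 had 0.30 ± 0.32, with other probes at -0.07 to 0.40. TJP3 (ZO-3) had -0.09 ± 0.15, CLDN1 0.09 ± 0.09, and CXADR, an adhesion protein of the junction, -0.09 ± 0.36. MSN (moesin) and RDX (radixin), the relatives of ezrin, had -0.28 ± 0.20 and 0.10 ± 0.13, with other probes at 0.03 to 0.24 for MSN and at -0.63 to 0.02 for RDX. LSR, of the corners where 3 cells meet, had 0.17 ± 0.10, and CLDND1 had 0.29 ± 0.21, with its other probe at 0.01. CGNL1 (paracingulin) and MARVELD2 had no probe that passed the filter.

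In pool pair 2 a few junction genes were far above the rest. CLDN11, named here after its values were seen, had 4.10 in pool pair 2 but only -1.04 to -0.61 elsewhere, and JAM2 had 2.20 there, with -0.37, -0.43 and 0.93 elsewhere. In the same lipid pool part of the markers of cumulus and granulosa cells were high. Their summed intensity over 13 measured markers was 42869 in lipid pool 2, against 7181 to 12058 in the other lipid pools and 6658 to 16350.3 in the control pools. In that pair LUM had 3.70, VIM 2.96 and STAR 1.34, while CYP19A1, the oestrogen-forming aromatase, had -0.24, HAS2 -0.18 and FSHR, the receptor of follicle-stimulating hormone, 0.02, the last 3 named after their values were seen. HAS2 passed the limit on only 3 of 8 arrays for lipid and 4 for control, and FSHR on 3 for each. Over all pool pairs STAR had a mean of 0.52, with other probes at -0.05 to 0.28. CYP19A1 had -0.23, with its other probe at -0.60. LHCGR and TNFAIP6 had no kept probe. Without pool pair 2, CGN had -0.69 through EMBV3_41713, -0.24 through EMBV3_29056 and -0.32 through EMBV3_41371, CLDN6 had 0.67, and CLDN7 -0.19. The part of these markers in the other values was not tested.

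Markers of the trophectoderm, where the junctions lie, were split about evenly. Of 15 markers 8 were above 0 and 7 below, with a median of 0.01, and their summed intensity was 117949 to 186912 in lipid pools and 121840 to 180862 in control pools. KRT8, a keratin, had 0.01 ± 0.05, GATA3 0.04 ± 0.12, KRT18 -0.05 ± 0.36, CDH1 (E-cadherin) -0.10 ± 0.03 and CDX2 -0.04 ± 0.06. The defining marker CDX2 was dim, passing the limit on 4 of 8 arrays for lipid and on 2 for control. CDH1 passed it on 4 for lipid and on 3 for control. Of 9 inner cell mass markers 6 were above 0, and the median was 0.06, with POU5F1 at -0.19 ± 0.08, SOX2 at -0.04 ± 0.10 and NANOG at 0.14 ± 0.235. Because whole pooled embryos were measured, fewer junction-bearing cells and less RNA per cell cannot be told apart.

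**Figure D4:**
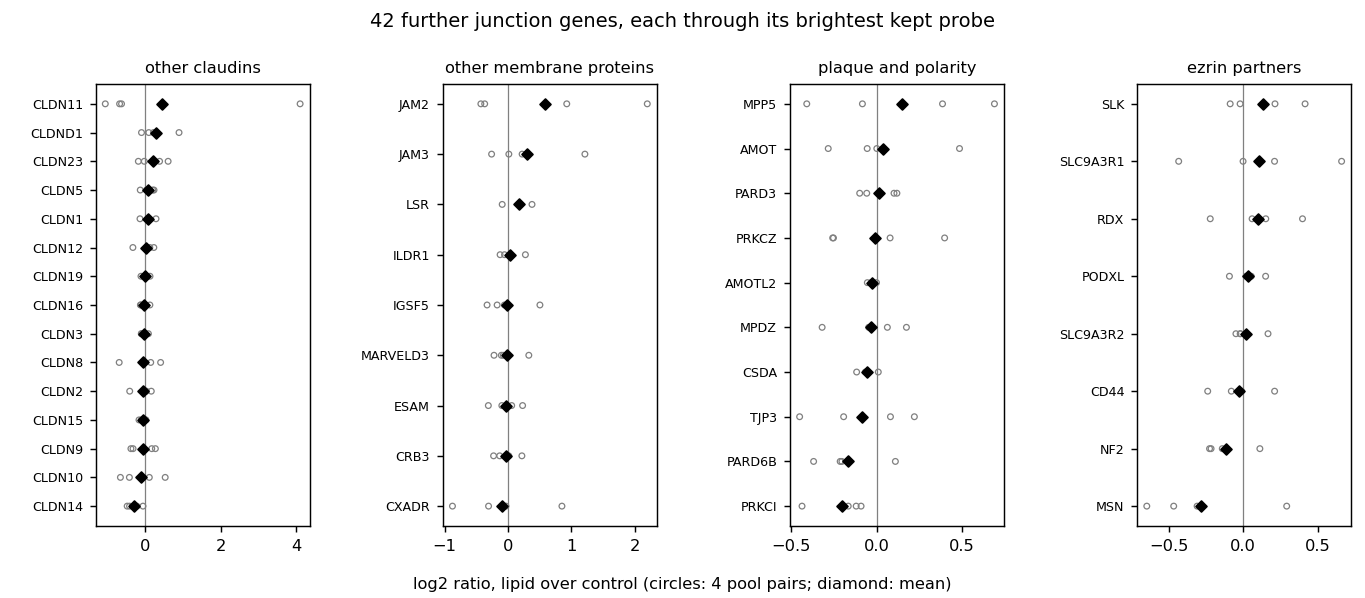
Log2 ratio of lipid over control for 42 further junction genes in 4 lists, each panel with its own horizontal scale (grey circles, 4 pool pairs; black diamonds, means). CLDN14 and PRKCI are among the 3 genes with all 4 pool pairs below 0, while CLDN11 and JAM2 each have 1 circle, pool pair 2, far to the right.

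The genes whose array pattern was most like that of CGN were sought among 11677 genes by Pearson's r of the brightest probe with the mean of the 3 CGN probes over 8 arrays. TAF1A had an r of 0.98, SUPT4H1 0.97, and ZNF619, GON4L and OSBPL9 0.96 each. These are the highest of many values over arrays that share 4 pool pairs and their dyes, and are a description with no test. Their mean ratios, from -0.13 to 0.14, lay nearer 0 than that of CGN EMBV3_41713.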

How the data were processed

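Per the file headers, the deposited scanner files hold, spot by spot, the mean foreground intensity and, around it, the median background at 532 nm (Cy3) and 635 nm (Cy5). Per the labels' protocols, RNA was amplified by T7 transcription and labelled chemically. The authors also deposited a table taken to hold log2 ratios. Limma is the tool named in the submitters' processing notes, with the table's log base, centring and background correction not given in the sources used here. Its columns correlated by 0.950 to 0.980 with the lipid over control ratios computed here, had medians of -0.03 to 0.02, and served as an alternative.

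Limma 3.58.1 (R 4.3.3) corrected the intensities of all spots by normexp with an offset of 50. It then applied loess to each array with control spots at weight 0, without scaling between arrays. Kept probes had a foreground, in either dye, over the mean plus 2 SD of 757 negative control spots on at least 4 of 8 arrays. These limits were 182 to 294 except on array 1 of slide 87 (461 in Cy5 and 958 in Cy3), where 20.5% of probes passed, against 55.2% to 73.8% elsewhere. Same-number arrays deviated together from the means of their dye orientation, with r = 0.61 to 0.77. Other arrays of opposite orientation had r = -0.32 to -0.03. Centring on these means pushes those values below 0 once same-number arrays correlate, so they add no separate support. The series' design text also describes a dye swap of each pool pair, so same-number arrays were averaged. Whether pools came from separate fertilizations is not stated, so p-values measure the spread between these pools.

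Ratios were tested against 0 with limma (lmFit, eBayes, two-sided, Benjamini-Hochberg over 28844 probes, threshold 0.05), and the test was tried on simulated data. SE is SD over pool pairs divided by the root of their number. Single values were also tested by exact permutation of signs, two-sided. Every probe of the 8 genes is named, with relatives fixed by name, the 8 junction genes of smallest p, 5 genes most like CGN and defining markers, while CLDN11, CYP19A1, HAS2 and FSHR were named after their values were seen. A further list of junction genes and 1 further relative are not reported here. The genes and lists were chosen with earlier results of these data known. All 8 symbols are current in RefSeq (assembly ARS-UCD2.0), and no coordinates are given because the files name no build. Precision is limited by the few arrays and by how far a probe rises over background.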

Additional observations from a re-analysis of the deposited data

Results flagged for a closer look

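The 4 pool pairs were searched for 1 that stood apart, in 46 sets of values, of which chance would single out about 1 in 20. A pool pair stood apart in 2. F11R EMBV3_10548 had -0.45 in pool pair 1, against -0.05 to 0.00 in the others. CLDN11, a claudin outside the 8 genes, had 4.10 in pool pair 2, against -1.04 to -0.61 in the others.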

How the results depend on the processing

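Of the 12 probes, 9 kept the sign of their mean under every alternative run. OCLN turned to 0.0050 with median centring, to 0.0031 on slide 87 alone, and ranged from -0.072 to 0.015 when 1 pool pair was left out. CLDN4 ranged from -0.21 to 0.072 when 1 pool pair was left out, and EZR EMBV3_12621 had 0.049 on slide 87 alone. The adjusted limma p of CGN EMBV3_41713 passed only with no replicate block (mean -0.74, 7 probes called in all) and with no replicate block and a dye term per slide (mean -0.74, 66 called), fits that count the arrays of a pool pair as separate samples. The pairing otherwise changed no call. Probes at an unadjusted p under 0.05 numbered 1287, against 440 with signal on all 8 arrays, 2492 with no replicate block, 4115 with a dye term added, 2365 with the replicate block as a random effect, 2776 on slide 88 alone, 196 with a trend and robust prior, and 916 to 2314 when 1 pool pair was left out. Except with no block, each of these settings called 0 probes. Asking for signal on all 8 arrays, the first of slide 87 included, left 8 of the 12 probes, 6 of them negative with a median of -0.12, and put the list medians at 0.12 (other claudins) and -0.011 (ezrin's partners), with no membrane protein left. The median of the 12 was -0.13 on slide 87 alone. That of ezrin's partners was -0.017 to 0.038 when 1 pool pair was left out. A term for a dye effect that differs between slides, chosen after seeing the data, called 0 probes. Except where fewer probes were tested or fewer arrays used, the cause was not tested. Setting flagged spots to missing was not run because the files have no flag column. Dim signal limits the CGN probes EMBV3_41713 and EMBV3_29056 and that of CLDN7.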
